A study of Mus musculus with 3 samples.

Results

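The libraries labelled *Pld6* KO and Dnmt3L KO were compared directly, site by site and region by region, in spermatogonia at P7 (postnatal day 7). These are 2 of the 3 libraries of the series, and the WT library is given beside them as the reference level. The members compared are the CpG sites listed in both mutant files on the 19 autosomes, which were 9161947 sites, or 58.2% of the autosomal sites of *Pld6* KO and 90.5% of those of Dnmt3L KO. They were pooled into 10-kb windows and into promoters (from 2 kb before to 0.5 kb after the RefSeq gene start), and a region was kept with at least 20 calls in each mutant. This left 215037 of 246266 windows and 18222 of 23241 promoters. All 3 libraries came from mice of the C57BL6/J strain, from whose testes spermatogonia were sorted with an anti-EpCAM antibody. The knockouts of *Pld6* and of *Dnmt3l* are carried by the whole animal and not by the germ cells alone. The methods of the study describe replicate animals and count heterozygotes among its WT mice, but 1 file per genotype was analysed here. Sequencing was by post-bisulfite adaptor tagging, in which unmethylated cytosines are read as thymines, and a call is 1 CpG read once as methylated or not. The methylation level of a region is the share of its calls that were methylated, as a fraction. With 1 library on each side there is no spread between animals and no test between genotypes was made. Genotype and library cannot be told apart in any difference given here. The intervals are 95% Wilson intervals for a level and 95% Newcombe intervals for a difference between levels. Where 0 calls were methylated, the limit given as "up to" is 3 divided by the number of calls, which for the values given is lower than the upper Wilson bound. Intervals and limits cover counting error only, and since calls of 1 read are linked they can be too narrow.

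PLD6 is a protein of the mitochondrial surface that takes part in making piRNAs, the small RNAs that guide the silencing of retrotransposons in fetal male germ cells. DNMT3L has no methyltransferase activity of its own and acts as the partner of the *de novo* DNA methyltransferases, which restore methylation across the genome in prospermatogonia before birth. The piRNA pathway thus feeds chosen targets into the machinery that DNMT3L serves, and CpG-rich promoters are generally spared.

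The sequences behind the main results are shown first, 5′ to 3′ on the strand of the gene or of the element, from RefSeq GRCm38.p6 (mm10), with every CpG in capitals. The first 3 are the 250 bases before a gene start, and they stand for promoters low in only Dnmt3L KO (*Tbx19* and *Mrap*) and for a promoter low in both mutants (*Tet2*). The last is a stretch of 30 bases in a copy of L1Md_A, a young LINE-1 family, in a window that was low in both mutants and fully methylated in WT.
Tbx19, chr1:165160774-165161023, minus strand: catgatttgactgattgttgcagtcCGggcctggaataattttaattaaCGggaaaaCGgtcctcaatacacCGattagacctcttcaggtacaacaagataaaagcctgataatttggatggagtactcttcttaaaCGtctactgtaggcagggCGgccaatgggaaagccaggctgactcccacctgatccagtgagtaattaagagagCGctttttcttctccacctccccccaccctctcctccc
Mrap, chr16:90737957-90738206, plus strand: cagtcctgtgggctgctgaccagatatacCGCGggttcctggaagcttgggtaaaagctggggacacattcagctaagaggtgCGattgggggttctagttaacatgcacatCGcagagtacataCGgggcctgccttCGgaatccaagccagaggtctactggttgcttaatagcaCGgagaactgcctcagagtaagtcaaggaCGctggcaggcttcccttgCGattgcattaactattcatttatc
Tet2, chr3:133544391-133544640, minus strand: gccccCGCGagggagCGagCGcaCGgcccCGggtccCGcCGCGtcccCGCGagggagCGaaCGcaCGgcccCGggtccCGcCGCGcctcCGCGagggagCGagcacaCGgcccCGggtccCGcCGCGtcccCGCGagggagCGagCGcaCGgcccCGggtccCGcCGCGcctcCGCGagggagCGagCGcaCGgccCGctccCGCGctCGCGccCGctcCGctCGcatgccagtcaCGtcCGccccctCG
L1Md_A copy, chr6:67008894-67008923, minus strand: CGCGcagaactCGagactgCGgtacatagg

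The stretches differ in how many CpGs they hold and in what the mutants kept of their methylation. The stretch of *Mrap* holds 9 CpGs, of which all 9 had calls in both mutants, and 40 of 44 calls were methylated in *Pld6* KO (a level of 0.909), 0 of 20 in Dnmt3L KO (which allows a level of up to 0.15) and 26 of 35 in WT. That of *Tbx19* holds 7 CpGs, of which 4 had calls in both mutants, with 7 of 8 calls methylated in *Pld6* KO against 0 of 4 in Dnmt3L KO, too few for more than a direction. The *Tet2* stretch is a run of short repeated units with 51 CpGs, of which 18 had calls in both mutants, and there 2 of 42 calls were methylated in *Pld6* KO, 0 of 18 in Dnmt3L KO and 2 of 43 in WT. At the 4 CpGs of the L1Md_A stretch, 1 of 31 calls was methylated in *Pld6* KO against 0 of 6 in Dnmt3L KO, whereas 11 of 11 were methylated in WT. In these letters, the stretch of *Mrap* was methylated in *Pld6* KO and WT, the covered CpGs of the dense one were nearly unmethylated in all 3 libraries, and that of L1Md_A was methylated in WT alone.

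The libraries held 64076569 calls in *Pld6* KO, 19289688 in Dnmt3L KO and 43757722 in WT, so that the Dnmt3L KO library sets the precision. At the sites compared there were 4.58 calls per site in *Pld6* KO against 1.91 in Dnmt3L KO. The labels were checked at the targeted genes. A run of 66 CpGs around the start of *Pld6* (chr11:59787155-59788594) had 0 calls in *Pld6* KO against 65 in Dnmt3L KO, and a run of 53 CpGs inside *Dnmt3l* (chr10:78050450-78054524) had 0 calls in Dnmt3L KO and 171 in *Pld6* KO. Maternally methylated imprinted genes are unmethylated in the male germ line and carry methylation on 1 allele in somatic cells, which makes them markers of other testis cells. Within 500 bp of the start, the 12 of 13 such genes with calls had levels of at most 0.121 in *Pld6* KO, 0.0556 in Dnmt3L KO and 0.235 in WT, the highest in *Pld6* KO and WT being *Airn*.

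Pooled over the shared sites, *Pld6* KO had a level of 0.715 (95% interval 0.7147 to 0.7150) against 0.305 in Dnmt3L KO (0.3046 to 0.3050). The difference was 0.410 (0.4098 to 0.4103). WT had 0.688 at the same sites. Among the 146745 sites with at least 5 calls in each mutant, 28.3% were low in Dnmt3L KO and high in *Pld6* KO, 13.3% were low in both, and 77 sites (0.0525%) were low in *Pld6* KO and high in Dnmt3L KO. Here and below, low is a level under 0.2 and high a level of at least 0.5.

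In the 10-kb windows, Dnmt3L KO had the lower level nearly everywhere. Over all windows the median level was 0.851 in *Pld6* KO, 0.297 in Dnmt3L KO and 0.854 in WT, and the median difference between the mutants was 0.471. Dnmt3L KO was lower by at least 0.3 in 184011 windows (85.6%), and it was the higher of the pair in 80 windows (0.0372%). *Pld6* KO was lower by at least 0.3 in 4 windows (0.00186%). The mutants lay within 0.1 of each other in 2295 windows (1.07%), in 287 of which the WT level was high. Only Dnmt3L KO was low in 44496 windows (20.7%), both mutants were low in 2268 (1.05%), both were high in 33052 (15.4%), and only *Pld6* KO was low in 1 (0.000465%). The most frequent combination, in 116077 windows (54.0%), was a high level in *Pld6* KO with a level between 0.2 and 0.5 in Dnmt3L KO. Although the levels lay so far apart, windows were ranked alike to a degree, with a Spearman's rho of 0.63 between the mutants across the 215037 windows, which share their sequence and hence their CpG density and mappability. The windows closest to the threshold show how gradual the classes are. In the 3237 windows with a Dnmt3L KO level from 0.19 to 0.20 and a high level in *Pld6* KO the median *Pld6* KO level was 0.790, and in the 4990 windows from 0.20 to 0.21 it was 0.804.

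**Figure D1:**
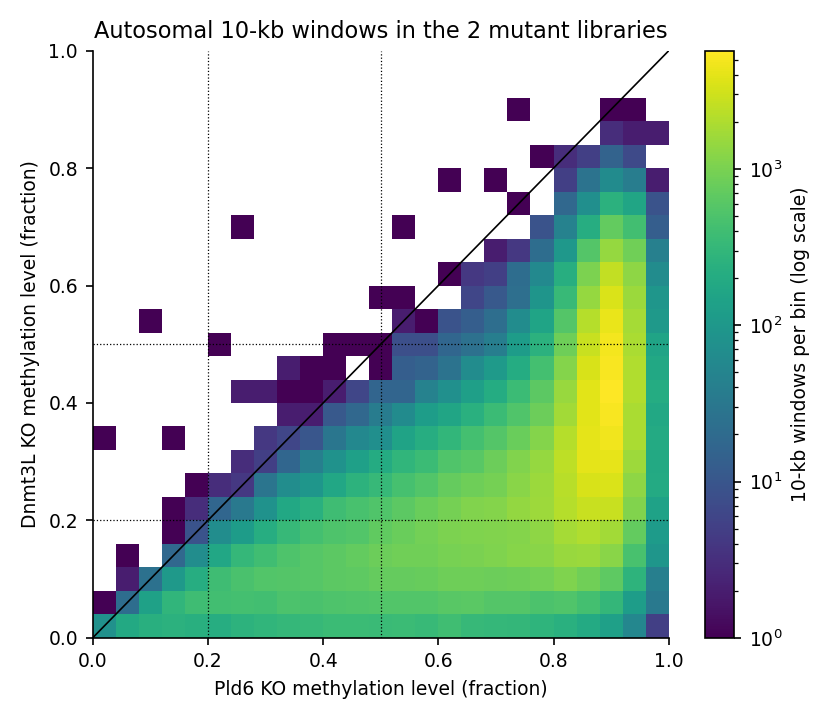
Methylation level of 10-kb autosomal windows in *Pld6* KO (x axis) and Dnmt3L KO (y axis), both as fractions; the color gives the number of windows in a bin on a log scale, dotted lines mark 0.2 and 0.5 and the solid line equal levels. All but 80 of 215037 windows lie on or below the line, and most are piled up at high *Pld6* KO levels over a wide range of Dnmt3L KO levels.

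Windows low in both mutants were mostly windows that are low in WT as well. Of the 2237 with at least 20 WT calls, 1845 had a WT level under 0.2, 295 lay between 0.2 and 0.5, and 97 were high in WT. The 1845 had median levels of 0.141 in *Pld6* KO, 0.0456 in Dnmt3L KO and 0.118 in WT, held 22.5 CpGs per kb against 7.80 over all windows, and 81.4% of them contained a gene start, against 9.09% of all windows. The longest stretches of neighbouring both-low windows were the clusters of homeotic (Hox) genes, the transcription factors that pattern the body axis. Over 70 kb at the *Hoxd* cluster (chr2:74650001-74720000), from *Evx2* to *Hoxd3*, the level was 0.0687 in *Pld6* KO (3710 calls), 0.0147 in Dnmt3L KO (1774 calls) and 0.0502 in WT. The *Hoxa* cluster followed with 60 kb (chr6:52200001-52260000) at 0.0790 and 0.0144, and the *Hoxc* cluster with 50 kb (chr15:102950001-103000000) at 0.165 and 0.0210. Even there the Dnmt3L KO level was the lower one.

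In 97 windows both mutants were low while WT was high. Their median levels were 0.167 in *Pld6* KO, 0.0370 in Dnmt3L KO and 0.763 in WT. The median difference between the mutants was 0.119. These windows had medians of 63 calls in *Pld6* KO and 33 in Dnmt3L KO, against 399.5 and 179 over all both-low windows. They differed in sequence from the other both-low windows, since 76.2% of their bases (median) were soft-masked as repeats against 20.7% in the windows low in WT, 1 of them contained a gene start and 17 overlapped a gene. A match to the L1Md_A amplicon of the study's bisulfite PCR lay in 23 of the 97 (23.7%), against 0.604% of all windows and 1.20% of those low in only Dnmt3L KO. When the 97 windows were aligned with each other, 84 shared at least 1000 bases at 90% identity or more with another of them, and 80 shared such a stretch with at least 10 others. No other set of windows was aligned in this way, so that whether such sharing is particular to this class was not tested. The most shared stretch of 1 kb, chosen from these windows after their values were seen, was found in 76 of the 97 (78.4%) and in 5.29% of all windows. Among windows low in only Dnmt3L KO the share was 12.7%. Over all 11384 windows with this stretch, however, the medians were 0.700 in *Pld6* KO against 0.135 in Dnmt3L KO, and 5636 of them were low in only Dnmt3L KO, so that most windows with the stretch kept methylation in *Pld6* KO.

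Of 2 such windows in which all WT calls were methylated, the one with more calls lies on chromosome 6 (chr6:67000001-67010000) in *Gng12*, which encodes a G-protein subunit, and contains the L1Md_A stretch printed above. The window had 0.109 in *Pld6* KO (129 calls, 0.0658 to 0.174), 0 in Dnmt3L KO (34 calls, up to 0.0882) and 1 in WT (41 of 41 calls). Inside the L1Md_A match itself (chr6:67006655-67009575) 2 of 100 calls were methylated in *Pld6* KO, 0 of 20 in Dnmt3L KO and 24 of 24 in WT. The other, chr16:69390001-69400000, had 0.167 in *Pld6* KO, 0 of 23 calls in Dnmt3L KO (up to 0.130) and 1 in WT, with an L1Md_A match and no gene. The next windows by WT level hold no L1Md_A match. These were chr1:122670001-122680000 (0.18, 0.0238 and 0.981 in WT) and chr6:65100001-65110000, which overlaps the chromatin remodeler gene *Smarcad1* (0.198, 0.133 and 0.978). The fifth, chr3:124030001-124040000, has an L1Md_A match and no gene, and had 0.0725, 0 of 34 calls (up to 0.0882) and 0.964. These windows were ordered by the WT level, which is therefore a description.

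Among the 5 retrotransposon families with enough calls, the mutants came closest at L1Md_A and next at RLTRETN_Mm, an LTR of early transposon (ETn) elements. Reads were mapped to unique regions of the genome, so that a copy is seen only as far as reads could be placed in it. Inside 1853 separate L1Md_A regions *Pld6* KO had a level of 0.228 (15709 calls, 0.221 to 0.234), Dnmt3L KO one of 0.0928 (7023 calls, 0.0863 to 0.0998) and WT one of 0.865, a difference between the mutants of 0.135 (0.125 to 0.144). At 2 to 2.5 kb before the match the levels were 0.790 and 0.186, a difference of 0.604. The approach was gradual on that side, with *Pld6* KO levels of 0.717 at 1 to 1.5 kb, 0.486 at 0.5 to 1 kb and 0.185 within 500 bp. The Dnmt3L KO level fell over the same distance from 0.144 to 0.0472. For RLTRETN_Mm the levels inside the match were 0.366 in *Pld6* KO, 0.134 in Dnmt3L KO and 0.783 in WT, and the difference of 0.232 compares with 0.579 at 1 to 1.5 kb before it.
At IAPLTR1_MM, an LTR of the IAP family, and MT2-MERVL the mutants stayed apart. The difference inside the match was 0.401 for IAPLTR1_MM (0.661 in *Pld6* KO against 0.260 in Dnmt3L KO) and 0.488 for MT2-MERVL (0.801 and 0.313). WT had 0.861 inside IAPLTR1_MM and 0.820 inside MT2-MERVL, so that *Pld6* KO lay below WT at the former and near it at the latter. Next to the IAP LTR the Dnmt3L KO level was higher than farther away, 0.368 within 500 bp on the 5′ side against 0.179 at 2 to 2.5 kb. Inside RLTR10C-MMERVK10C the levels were 0.717 and 0.310, with WT at 0.847. RLTR4 and RLTR6 had at most 37 calls inside the match in either mutant, and no difference between the mutants was read from them. Taken copy by copy with 1 kb on each side, a width chosen after the profiles were seen, 385 L1Md_A copies had at least 20 calls in each mutant, of which 158 (41.0%) were low in both, 15 (3.90%) low in only Dnmt3L KO and 3 high in both. The other 209 (54.3%) were in none of these classes. Over all 385 copies Dnmt3L KO was low in 329 and *Pld6* KO in 164. Of the 158 copies low in both, 106 were high in WT with at least 20 WT calls. How many of the others had too few WT calls to be placed was not counted. Among 109 RLTRETN_Mm copies 17 were low in both and 28 in only Dnmt3L KO, and among 157 IAPLTR1_MM copies the numbers were 3 and 44.

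**Figure D2:**
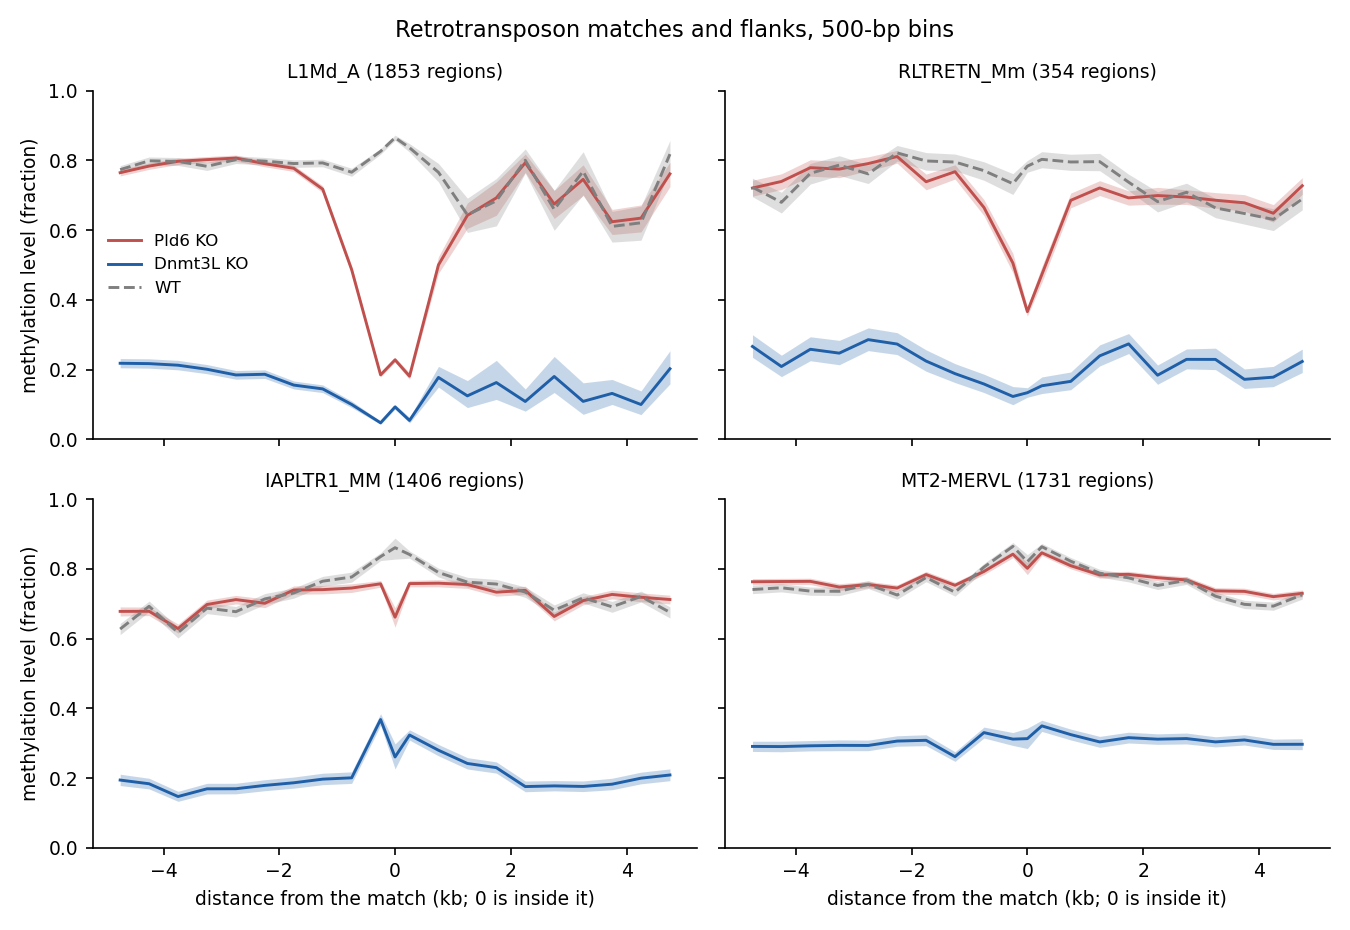
Methylation level (fraction, y axis) inside and up to 5 kb around matches to 4 retrotransposon amplicons, in bins of 500 bp with negative distances on the 5′ side, for *Pld6* KO, Dnmt3L KO and WT (dashed); bands are 95% Wilson intervals. The *Pld6* KO line drops towards Dnmt3L KO at L1Md_A (0.228 inside) and RLTRETN_Mm (0.366), and stays near WT at MT2-MERVL (0.801).

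The windows that were low in only Dnmt3L KO were poor in CpGs and lay mostly outside genes. Their median levels were 0.741 in *Pld6* KO, 0.134 in Dnmt3L KO and 0.762 in WT, they held 5.90 CpGs per kb, and 25.9% of them overlapped a gene, against 50.5% of all windows. They were spread over the genome in 29081 runs of neighbouring windows, of which 19804 were single windows and 11 held 10 or more. The longest runs were 190 kb each. One lies on chromosome 7 (chr7:12550001-12740000) over 4 genes of vomeronasal receptors, which sense pheromones, *Vmn2r53* to *Vmn2r56*, with 0.657 in *Pld6* KO (1319 calls) against 0.0642 in Dnmt3L KO (670 calls). The other, on chromosome 13 (chr13:68100001-68290000), overlaps the noncoding gene *Urml* and had 0.651 and 0.0713. The single windows with the greatest differences and at least 40 calls in each mutant were chr1:35110001-35120000 and chr5:133450001-133460000, with no gene. The former had 0.971 in *Pld6* KO (69 calls) against 0.0233 in Dnmt3L KO (43 calls), a difference of 0.948 (0.827 to 0.976). In the latter they were 0.932 (118 calls) and 0 of 43 calls (up to 0.0698). The next ones were chr7:76690001-76700000 in *Agbl1*, a gene of a tubulin-modifying carboxypeptidase family (0.936 and 0.025), chr7:86940001-86950000 in the vomeronasal receptor gene *Vmn2r78* (0.922 and 0.0208), and chr1:12020001-12030000 with no gene (0.967 and 0.0667). WT had 0.825 to 0.929 in these 5 windows, where *Pld6* KO had 0.922 to 0.971. The 5 were chosen by the difference between the mutants, so that its size and the order of *Pld6* KO and WT are descriptions. Over the whole class the WT median was the higher (0.762 against 0.741).

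Windows that stayed high in both mutants were, on the contrary, mostly inside genes. Their median levels were 0.899 in *Pld6* KO against 0.565 in Dnmt3L KO, and 86.0% overlapped a gene while 2.04% contained a gene start. Of all windows overlapping a gene 26.2% were high in both mutants, against 4.35% of the windows outside genes, and for the class low in only Dnmt3L KO the shares were 10.6% and 31.0%. Windows in genes are richer in GC, so the shares were also taken within 10 groups of equal size by GC content. In each of the 10 groups the Dnmt3L KO median was higher in windows that overlap genes, from 0.25 against 0.154 in the lowest group to 0.397 against 0.365 in the highest. The *Pld6* KO medians differed less, at 0.860 against 0.788 and 0.836 against 0.838. The longest runs of windows high in both were 310 kb in *Mad1l1* (chr5:140010001-140320000), a spindle checkpoint gene, with 0.908 in *Pld6* KO (8081 calls) against 0.670 in Dnmt3L KO (2864 calls), 290 kb in *Rptor* (chr11:119610001-119900000), which encodes a subunit of the mTORC1 kinase complex, with 0.908 and 0.648, and 280 kb in *Tbc1d22a* (chr15:86220001-86500000) with 0.903 and 0.617. WT had 0.911 to 0.920 in these runs, close to *Pld6* KO.

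The only window low in *Pld6* KO and high in Dnmt3L KO rested on a single CpG. It lies in *Rc3h1*, which encodes the RNA-binding protein roquin (chr1:160960001-160970000), and had 0.101 in *Pld6* KO (901 calls), 0.543 in Dnmt3L KO (46 calls) and 0.833 in WT (66 calls). One site, at position 160961225, took 808 of the 901 *Pld6* KO calls, of which 9 were methylated, and had 1 call in Dnmt3L KO. At the other 28 sites the level was 0.882 in *Pld6* KO (93 calls), 0.533 in Dnmt3L KO (45 calls) and 0.932 in WT, so that Dnmt3L KO was the lower one there. The 3 other windows in which *Pld6* KO was lower by at least 0.3 all hold an L1Md_A match and are soft-masked over at least 99.7% of their length. They had 0.267 against 0.707 (chr3:6300001-6310000), 0.0333 against 0.350 (chr2:12640001-12650000, from 30 and 20 calls) and 0.207 against 0.509 (chr9:79900001-79910000, in *Filip1*), with WT at 0.938, 0.667 and 0.916. In the last of these the difference of -0.302 had an interval of -0.439 to -0.161.

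The classes followed CpG density, in windows and promoters in different ways. When windows were divided into 10 equal groups by CpG density, the share low in only Dnmt3L KO went from 41.7% in the group with a median of 3.70 CpGs per kb to 10.1% in the group with 17.5. The mean difference between the mutants fell from 0.57 ± 0.14 (SD over 21503 windows) to 0.31 ± 0.15, and the share low in both stayed under 1% up to the ninth group and reached 8.15% in the densest. By GC content the mean difference went from 0.56 to 0.34 between the extreme groups. It was 0.40 in the windows with the least soft-masked sequence and 0.52 in those with the most. From chromosome to chromosome the median difference varied little, between 0.421 on chromosome 11 and 0.508 on chromosome 10, and it was positive on all 19.

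**Figure D3:**
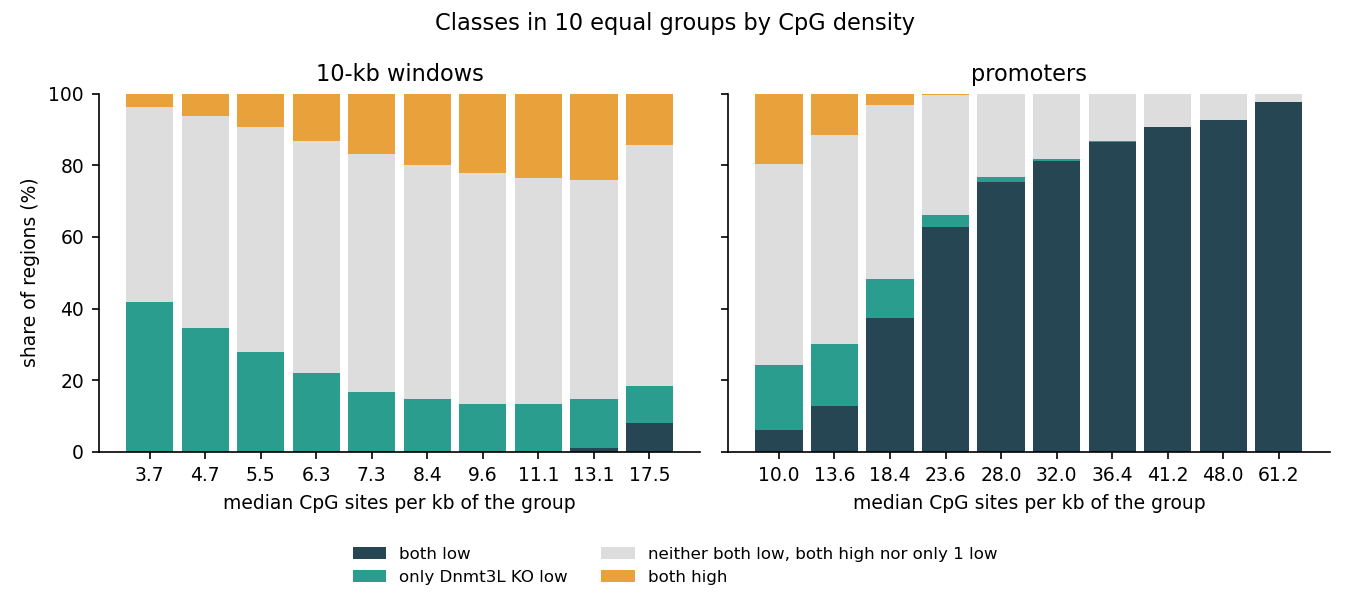
Share of 10-kb windows (left) and promoters (right) in each class, in 10 groups of equal size by CpG density; the x axis gives the median number of CpG sites per kb of a group and the y axis the share in percent. The share low in only Dnmt3L KO falls from 41.7% to 10.1% in windows, and in promoters both-low regions rise from 6.2% to 97.5%.

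Promoters were low in both mutants far more often than windows. Both were low in 11710 of the 18222 promoters (64.3%), only Dnmt3L KO in 954 (5.24%), only *Pld6* KO in 0 (0%), and both were high in 635 (3.48%). Dnmt3L KO was lower by at least 0.3 in 3481 promoters (19.1%), and *Pld6* KO in 0 (0%). Of the both-low promoters with at least 20 WT calls 11208 were low in WT too and 2 were high. The mutants lay within 0.1 of each other at 9906 promoters (54.4%), and at 28 of these the WT level was high. Dnmt3L KO was above *Pld6* KO at 875 promoters (4.8%). Dnmt3L KO had the lower median, with levels over all promoters of 0.122 in *Pld6* KO, 0.0294 in Dnmt3L KO and 0.0976 in WT, and with 0 methylated calls at 4084 promoters against 396 in *Pld6* KO, the deeper library. The both-low promoters held 36.4 CpGs per kb (median), those low in only Dnmt3L KO 13.6 and those high in both 11.6. The median difference between the mutants was 0.0857 at these promoters and 0.00506 when only 0.5 kb on each side of the start was taken.

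Around the gene start, the mutants lay close together where CpGs were dense and apart where they were sparse. In the 7747 genes with the densest promoters the level within 250 bp upstream was 0.00692 in *Pld6* KO against 0.00358 in Dnmt3L KO. In the 7747 with the sparsest the levels in the 250 bp centred 375 bp downstream were 0.607 and 0.196, and 1125 bp upstream they were 0.828 and 0.348. WT had 0.541 and 0.816 at these distances, below and near *Pld6* KO.

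**Figure D4:**
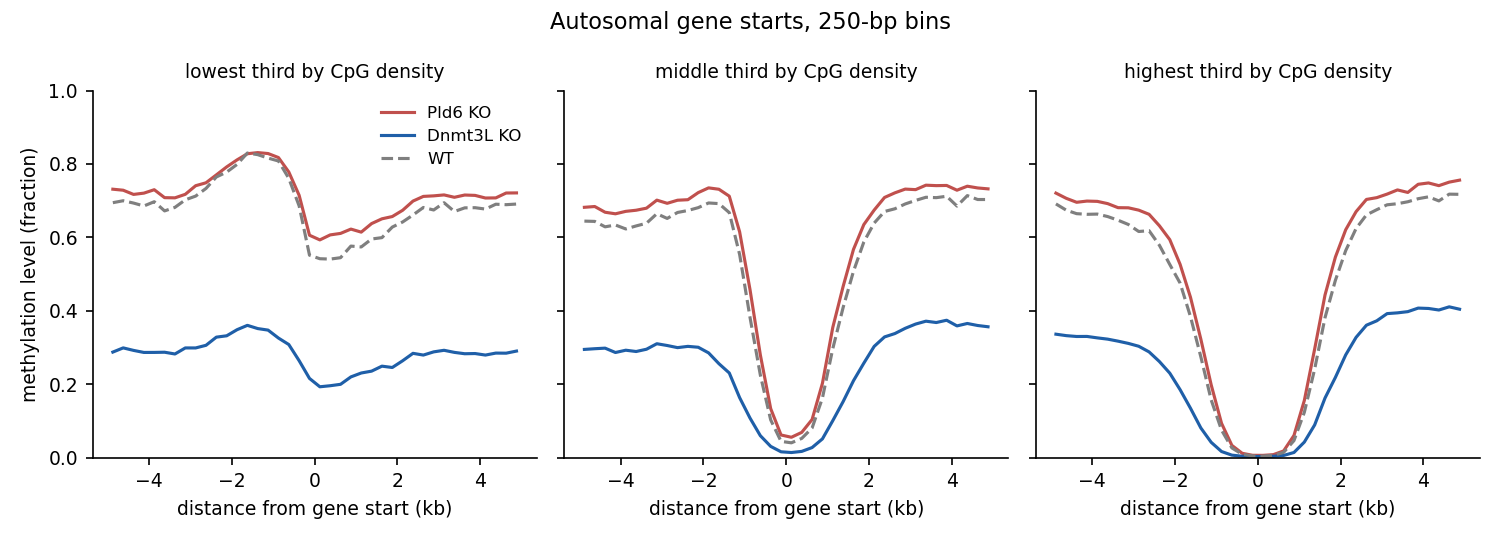
Methylation level (fraction, y axis) by distance from the gene start (kb, x axis) in bins of 250 bp, for autosomal genes in 3 groups of 7747 by the CpG density of the promoter; lines are *Pld6* KO, Dnmt3L KO and WT (dashed). The mutants meet near 0 at dense starts and stay apart at sparse ones (0.607 and 0.196 at 375 bp downstream).

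The 10 protein-coding promoters with the greatest difference among those low in only Dnmt3L KO, each with at least 40 calls in both, belonged to genes of varied tissues. At *Tbx19* (chr1:165160273-165162773), a transcription factor of pituitary corticotroph cells, 92 of 101 calls were methylated in *Pld6* KO (0.911) against 0 of 45 in Dnmt3L KO (up to 0.0667), with 0.698 in WT. The difference was 0.911 (0.805 to 0.952). *Mrap* (chr16:90736207-90738707), the accessory protein of the receptor for the pituitary hormone ACTH, had 0.855 (256 calls), 0.0533 (75 calls) and 0.821 in *Pld6* KO, Dnmt3L KO and WT. *Misp* (chr10:79819021-79821521), which takes part in positioning the mitotic spindle, was the most deeply covered with 0.879 (265 calls), 0.0690 (87 calls) and 0.936. In each of the 3 the intervals of the mutants lay far apart while *Pld6* KO and WT were both high.
The others were *Aldh8a1*, an aldehyde dehydrogenase (0.862 and 0.0213), *Cspg5*, a proteoglycan of neurons (0.896 and 0.0667), the membrane protein genes *Tmem247* (0.919 and 0.10) and *Tmem207* (0.917 and 0.10), the chloride channel gene *Best3* (0.907 and 0.0909), the protocadherin gene *Pcdhgc5* (0.892 and 0.0784) and *Fut2*, a fucosyltransferase of mucosal surfaces (0.865 and 0.0526). They were chosen by this difference, so that its size is a description.
Among the promoters low in both mutants, the 10 protein-coding ones with the highest WT level reached 0.394 to 0.511 in WT. The highest, *Pptc7* (chr5:122282398-122284898), which encodes a mitochondrial phosphatase, had 14 of 75 methylated calls in *Pld6* KO (0.187), 1 of 29 in Dnmt3L KO (0.0345) and 23 of 45 in WT (0.511). *Ei24* (chr9:36796834-36799334), an endoplasmic reticulum protein gene, had 0.142 (120 calls), 0.0312 (64 calls) and 0.435 (46 calls). *Crisp2*, a gene of a sperm acrosome protein, had 0.139 (36 calls), 0 of 22 calls and 0.40 (20 calls), the fewest of the 10 in WT. For 8 of the 10, all but *Ei24* and *Enpp5*, the interval of the difference between the mutants included 0, so that a difference was not detectable at this depth. The remaining genes were *Tusc3*, *Lsm11*, *Trpc1*, *B3glct*, *Ear10* and *Gigyf2*. These 10 promoters were chosen by the WT level, which is therefore a description.

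**Figure D5:**
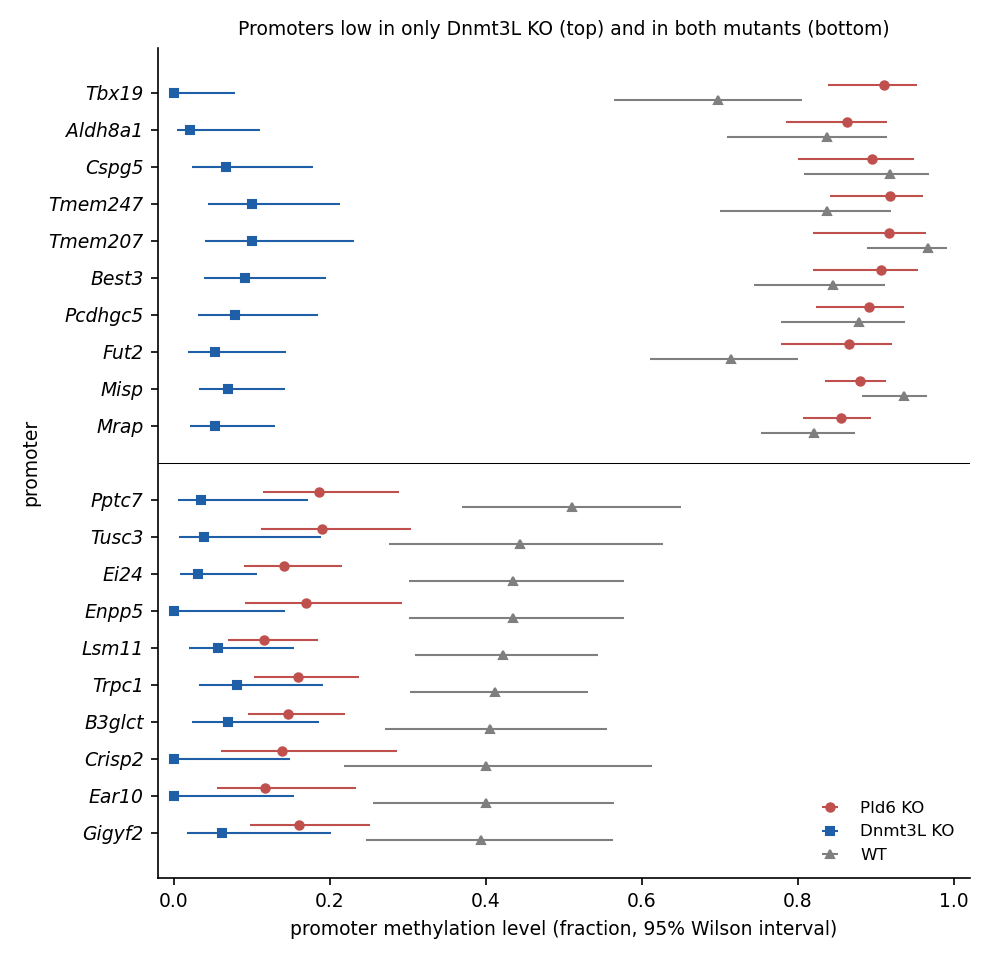
Promoter methylation level (fraction, x axis) of the 20 named promoters in *Pld6* KO (circles), Dnmt3L KO (squares) and WT (triangles) with 95% Wilson intervals. In the upper 10, chosen by the difference between the mutants, *Pld6* KO lies at 0.855 or higher, WT at 0.698 or higher and Dnmt3L KO at 0.10 or lower. The lower 10 were chosen for levels under 0.2 in both mutants and for the highest WT levels, so that their order follows from the choice.

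Gene lists are described by their counts beside those of all promoters, whose medians and shares are given above, and levels are in the order *Pld6* KO, Dnmt3L KO. Some genes are in more than 1 list. Germline genes, which many cell types silence by promoter methylation, were measured at 29 of 30 promoters, with medians of 0.164 in *Pld6* KO against 0.0192 in Dnmt3L KO. Of the 29, 17 were low in both (58.6%), 0 in only Dnmt3L KO, and 2 were lower in Dnmt3L KO by at least 0.3. These were *Asz1*, a piRNA pathway gene (0.358 from 123 calls and 0.0161 from 62), and *Stra8*, the regulator of meiotic entry (0.397 from 131 and 0.0702 from 57). WT had 0.420 at *Asz1* and 0.188 at *Stra8*, above and below *Pld6* KO. The smallest differences were at *Tdrkh* (0.0610 and 0.0286) and *Meioc* (0.0944 and 0.0312).
The piRNA pathway list, to which *Pld6* belongs, had medians of 0.263 and 0.0360 at 24 of 27 promoters. Of the 24, 11 were low in both and 1 in only Dnmt3L KO, *Pnldc1*, the gene of the enzyme that trims piRNA ends (0.504 and 0.141, WT 0.312). The largest difference was at *Tdrd7*, a Tudor protein gene (0.821 and 0.209, WT 0.534), and *Exd1* had 0.00595 and 0 of 79 calls (up to 0.0380). At *Pld6* itself 33 of 34 calls were methylated in *Pld6* KO against 7 of 18 in Dnmt3L KO, at the sites outside the missing run. Of the 24 spermatogonial genes 22 were measured, and 19 of them (86.4%) were low in both. *Nanos2*, which maintains spermatogonial stem cells, had 0.734 (79 calls), 0.226 (31 calls) and 0.844 in WT, and *Sohlh1* had 0.333 and 0.0816, whereas *Lhx1* (0.00990 and 0.0151) and *Cdh1* (0.0281 and 0.0375) were near 0 in both mutants. The list named for spermatid genes, some of which are also active in spermatocytes or other cells, was higher in *Pld6* KO, with medians of 0.656 and 0.172 at 28 of 35 promoters, 13 of which (46.4%) were lower in Dnmt3L KO by at least 0.3. *Tssk2*, a kinase gene of spermatids, had 0.929 and 0.203, *Catsper3*, a sperm calcium channel gene, 0.910 and 0.292, and *Zpbp* had 0 of 109 calls (up to 0.0275) and 0 of 45 (up to 0.0667).

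Among the enzymes of DNA methylation and their partners 11 of 16 measured promoters of 20 listed genes were low in both mutants. *Dnmt3l* had 0.797 in *Pld6* KO (74 calls), 0.0476 in Dnmt3L KO (21 calls) and 0.763 in WT, a difference of 0.75 (0.542 to 0.835). *Dnmt1*, the maintenance methyltransferase, had 0.938 and 0.357 while *Tet2*, an enzyme that oxidizes methylated cytosine, had 0.0118 and 0.0147 and *Mbd4* 0.0593 and 0.0545. Of the maternally methylated imprinted genes 18 of 20 were measured over the wider promoter, and 14 were low in both. The largest differences were at *Impact* (0.490 and 0.0645, WT 0.462) and *Airn* (0.370 and 0.121), the smallest at *Sgce* (0.0495 and 0.0288) and *Peg10* (0.0458 and 0.0476). Paternally methylated imprinted genes acquire their mark in prospermatogonia at control regions that mostly lie outside this promoter window. All 6 were measured, with *H19* at 0.448 (183 calls) and 0.0548 (73 calls) and WT at 0.291, and *Igf2* high in both mutants at 0.884 and 0.60. *Dlk1* (0.0510 and 0.0244) and *Rasgrf1* (0.0152 and 0 of 154 calls, up to 0.0195) were low in both.

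Gene families of CpG-poor, tissue-restricted promoters made up the other end. Olfactory receptor genes, which detect odorants, were measured at 102 of 1104 promoters, since most hold too few calls, and had medians of 0.719 in *Pld6* KO against 0.174 in Dnmt3L KO. Of the 102, 25 (24.5%) were low in only Dnmt3L KO, 80 (78.4%) were lower in Dnmt3L KO by at least 0.3, and 4 were low in both. *Olfr461* had 0.884 and 0.0417. Vomeronasal receptors (12 of 350 measured, medians 0.667 and 0.205) and defensins (11 of 70, 0.846 and 0.160), which are antimicrobial peptides, had 3 promoters each low in only Dnmt3L KO, among them *Vmn1r88* (0.931 and 0.172) and *Defb35* (0.917 and 0.160). Keratins (47 of 53, 0.647 and 0.245) had 7 such promoters and 31 (66.0%) lower by at least 0.3. These families hold 8.40 to 16.8 CpGs per kb (medians), against 29.99 over all promoters. In the sparsest of the 10 promoter groups by CpG density (median 9.996 per kb), 17.9% were low in only Dnmt3L KO. In the groups with medians of 13.6 and 18.4 the shares were 17.5% and 10.98%. The family shares were 24.5% (olfactory receptors), 25% (vomeronasal receptors), 27.3% (defensins) and 14.9% (keratins). Families were not matched to other promoters by density, so the part of CpG density in these shares was not tested.
Homeotic genes lay at the opposite end with 35.2 CpGs per kb, where 32 of 36 measured promoters (88.9%) were low in both and 0 in only Dnmt3L KO. *Hoxa7* (0.315 from 146 calls and 0 of 67, up to 0.0448, WT 0.195) showed the largest difference and *Hoxc9* (0.00529 and 0.0137) the smallest. Clustered protocadherin genes, which give neurons their surface identity, were mixed and held 16.4 CpGs per kb (median). Of 45 measured of 57, 28 (62.2%) were low in both and 6 (13.3%) in only Dnmt3L KO, with *Pcdhb13* at 0.812 (48 calls), 0 of 25 calls (up to 0.12) and 0.245 in WT (49 calls), *Pcdhga7* at 0.0462 and 0.0339 and *Pcdhb1* at 0.0112 and 0 of 51 (up to 0.0588). At *Pcdhb13* the *Pld6* KO level (0.681 to 0.898) lay above that of WT (0.146 to 0.381). Keratins, with a similar median of 16.8 CpGs per kb, had 4 of 47 promoters (8.51%) low in both mutants.

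The study also listed genes whose expression was raised in mutant spermatocytes and that lay by an activated retrotransposon copy, and since it chose them on related samples of these genotypes their direction here is not independent evidence. Of 13 such genes for *Pld6* KO, 8 had a measured promoter at their own start, 3 of them low in both mutants and 1 in only Dnmt3L KO, *Il23r*, which encodes a subunit of the interleukin-23 receptor (0.870 from 54 calls and 0.0769 from 26). *Robo2* and *Sntb1* were near 0 in both, at 0.0328 and 0.0263 in *Pld6* KO and with 0 of 26 calls each in Dnmt3L KO (up to 0.115). Of 37 for *Dnmt3l* KO, 18 were measured, 10 low in both and 5 in only Dnmt3L KO (27.8%). *Slc15a2*, a peptide transporter gene, had 0.963 (81 calls) and 0.105 (38 calls) with 0.923 in WT, and *Greb1l* (0.0211 and 0.0250) and *Fsd1l* (0.0726 and 0.0645) had intervals of the difference that included 0.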

How the data were processed

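The values deposited by the authors are, for each CpG site of a library, 2 counts, of calls read as methylated and as unmethylated, with the methylation level computed from them. Per the study's methods and the submitters' processing notes, single-end reads were trimmed and aligned with Bismark to unique regions of mm10; no version was given. Fractions were recomputed here from the deposited counts, not taken from the level column. Calls were joined at autosomal sites listed in both mutant files and summed in windows, in promoters counted from the outer end of each RefSeq gene (GRCm38.p6), and around blastn 2.17.0 matches (identity and coverage of 90% or more) to the study's amplicon sequences. Python 3.11.15 with numpy 2.4.6, pandas 2.3.3 and matplotlib 3.10.9 was used, and the classes were tested on simulated data.

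Low is a level under 0.2, high one of at least 0.5, and only 1 mutant is low where the other is high. Named promoters are the 10 with the greatest difference among those low in only Dnmt3L KO (at least 40 calls in each mutant) and the 10 with the highest WT level among those low in both, restricted to protein-coding genes without provisional names. Named windows follow the same rule with 5 of each kind, and of each gene list up to 2 members at either end of the difference could be named. The question, classes and lists were chosen with earlier results of these data known, and the 1 kb around element copies and the most shared stretch after values were seen.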

Additional observations from a re-analysis of the deposited data

Results flagged for a closer look

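On the mitochondrial genome, which the comparisons above leave out, *Pld6* KO had a level of 0.383 over 45530 calls (0.379 to 0.388), WT had 0.354 over 30797 calls (0.349 to 0.360) and Dnmt3L KO had 0.321 over 13047 calls (0.313 to 0.330). It drew attention because the *Pld6* KO level in data outside the comparison lay above that of WT. The same order was seen at the shared autosomal sites (0.715 and 0.688) and in unplaced sequences (0.427 and 0.423). On the X and Y chromosomes *Pld6* KO lay below WT. Mitochondrial DNA is usually taken as nearly unmethylated, and the study's methods give a nearly complete bisulfite conversion for its samples. Whether these calls are methylation or unconverted cytosines was not tested.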

How the results depend on the processing

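No paired analysis was possible because each genotype has 1 library. When the 13 results were repeated under the alternatives, 71 values stayed within 1.5 times (shares), the spread over regions (medians) or the counting error (pooled difference), 25 moved by more, and no pooled or median difference changed sign. The spread over promoters is wide, and among the 71 the median promoter difference went from 0.0857 to 0.00506 in the narrower promoter. Also among the 71, the share of promoters low in both mutants was 43.8% with low under 0.1 and 92.2% in the narrower promoter. It was 76.7% with at least 40 calls, against 64.3% in the main setting. Another of the 71 was the share of windows low in only Dnmt3L KO, at 20.7% in the main setting. That share was 13.9% with at least 40 calls and 22.8% with at least 10. Windows of this class had a median of 38 Dnmt3L KO calls, against 61 over all windows. With low set under 0.1, both mutants were low in 0.213% of windows, only Dnmt3L KO in 6.08% and only *Pld6* KO in 0%, and only Dnmt3L KO in 1.91% of promoters. With low under 0.3 the same shares were 2.85%, 40.5%, 0.00140% and 8.57%. In 50-kb windows 0.0797% were low in both and 0% low in only *Pld6* KO or lower there by at least 0.3. The share low in only *Pld6* KO was also 0% with sites of at most 20 calls, with the mean of site levels, and with 0.6 as the high level. *Pld6* KO was lower by at least 0.3 in 0.000893% of windows and 0.00538% of promoters with sites listed in either file, and in 0.000465% of windows with site means. At promoters with at least 40 calls, 2.65% were low in only Dnmt3L KO and 8.56% lower in it by at least 0.3, and in the narrower promoter of 0.5 kb on each side the shares were 2.54% and 5.76%. The pooled difference was 0.421 with sites in either file, 0.428 with sites of at most 20 calls, 0.407 as the mean of site levels and 0.410 with the X and Y chromosomes. The cause of these moves was not tested.
The Dnmt3L KO library limits the depth, with a median of 61 calls per window and 66 per promoter. A region of 20 calls with none methylated still allows a level of up to 0.15, so that classes near 0.2 mix at that depth. Regions rich in repeats are represented by the reads that could be placed uniquely.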

Other observations

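Outside the autosomes the mutants differed in the same direction. On the X chromosome the levels were 0.668 for *Pld6* KO, 0.224 for Dnmt3L KO and 0.682 for WT, and on the Y chromosome 0.476, 0.134 and 0.535. Unplaced sequences had 0.427, 0.119 and 0.423. These levels are over all sites listed in each library.
In 1373 windows (0.638%) Dnmt3L KO had 0 methylated calls while *Pld6* KO was high, and at 29 promoters (0.159%) the same was seen. Windows with 0 methylated calls in *Pld6* KO numbered 5, from the deeper library.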
